A study of Homo sapiens with 4 samples.

Results

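The JAK-STAT and ABL signalling genes described here are 10 human genes: the interleukin-7 receptor gene IL7R, the Janus kinase genes JAK1, JAK2, JAK3 and TYK2, the transcription factor genes STAT3, STAT5A and STAT5B, and the ABL family kinase genes ABL1 and ABL2. Their transcripts were examined for IGF2BP2 binding in Jurkat, an established human T-cell acute lymphoblastic leukemia (T-ALL) cell line. IGF2BP2 is an RNA-binding protein that reads N6-methyladenosine (m6A). In iRIP-seq, UV light links proteins to the RNA they touch in living cells, an antibody pulls down IGF2BP2, and the RNA attached to it is sequenced. The series held 2 IGF2BP2 iRIP libraries (replicates 1 and 2) and 2 input libraries with no antibody listed, all from Jurkat cells with no treatment named in the labels. The peak lists of both iRIP libraries were used and the inputs were not analysed here. No label says that the replicates came from separate cultures, so their spread may be technical.

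A peak was assigned to a gene when it lay on the sense strand, mainly in coding sequence (CDS), UTR, noncoding exon or intron, and when the authors' list gave the gene's Ensembl identifier. By this rule the 10 genes held 102 of the 145715 peaks of replicate 1 and 90 of the 137934 peaks of replicate 2. All of these peaks lay inside the RefSeq interval of the gene, on its strand. The height of a peak is given in tags, the signal that the authors deposited, without adjustment for depth. The sequencing depth of the libraries is unknown. Listed heights began at 4 tags for replicate 1 but at 5 tags for replicate 2, so the replicates do not share a lower limit. Among markers of the cell type, 8 of the 9 T cell marker genes whose identifier could be settled had a sense peak in both replicates, against 1 of 4 B cell markers, 1 of 5 myeloid markers and 0 of 3 erythroid markers. Over 18527 protein-coding genes the share was 47.6%, and the marker lists are short.

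In this pathway a cytokine brings its receptor chains together, the Janus kinases bound to the receptor tails phosphorylate one another and the receptor, and STAT proteins are then phosphorylated, pair up and enter the nucleus to act on transcription. In T cells, interleukin-7 signals through IL7R with JAK1 and JAK3 to STAT5, and activating mutations of IL7R, JAK1, JAK3 and STAT5B occur in T-ALL. ABL1 and ABL2 are cytoplasmic and nuclear tyrosine kinases, and fusions of ABL1, such as NUP214-ABL1 in T-ALL and BCR-ABL1 in other leukemias, give constantly active kinases.

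ABL1 was the member for which the reference tables covered peaks with sequence. In its 5′ UTR on chromosome 9 a peak of replicate 1 (130713400 to 130713450, 5 tags) met a peak of replicate 2 (130713450 to 130713500, 5 tags). The 30 bases around the point where they meet are shown because both libraries had a peak on one side of it. They are the plus strand of chr9:130713436-130713465 (RefSeq, GRCh38.p14), with the motif GGA in capitals.

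ABL1: cgtcgccccGGAgtaagctgcccgtgccgc

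GGA was searched on the transcript strand only, and with C as its next base it becomes GGAC, a common form of the m6A consensus. This stretch held 1 GGA and 0 GGAC. The 100 bases of both peaks held 3 GGA, of which 1 was followed by C, and were 70% G or C. The same 30 bases of all 35116 RefSeq start windows held GGA in 42.3% and GGAC in 10.3%, and the match is a description of these letters. The window that covered the ABL1 peaks is listed for LOC128092248 and not for ABL1. This background is therefore not matched to the 5′ UTR of ABL1.

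Peaks were found on 8 of the 10 genes in replicate 1 and on 6 of 10 in replicate 2. Over 18527 protein-coding genes with a settled identifier or no peak, 59.1% had a sense peak in replicate 1 and 57.5% in replicate 2. TYK2, STAT3, STAT5B, ABL1, ABL2 and JAK1 had peaks in both replicates, which makes 6 of 10 beside 47.6% of all these genes. JAK2 and JAK3 had peaks in replicate 1 only, and IL7R and STAT5A had no sense peak in either list. The genes are longer than most, with a median length of 82.2 kb against 24.0 kb. Their median number of peaks was 7.5 in both replicates against 1 over all genes, and per 10 kb of gene it was 0.484 and 0.426 against 0.204 and 0.164.

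**Figure D1:**
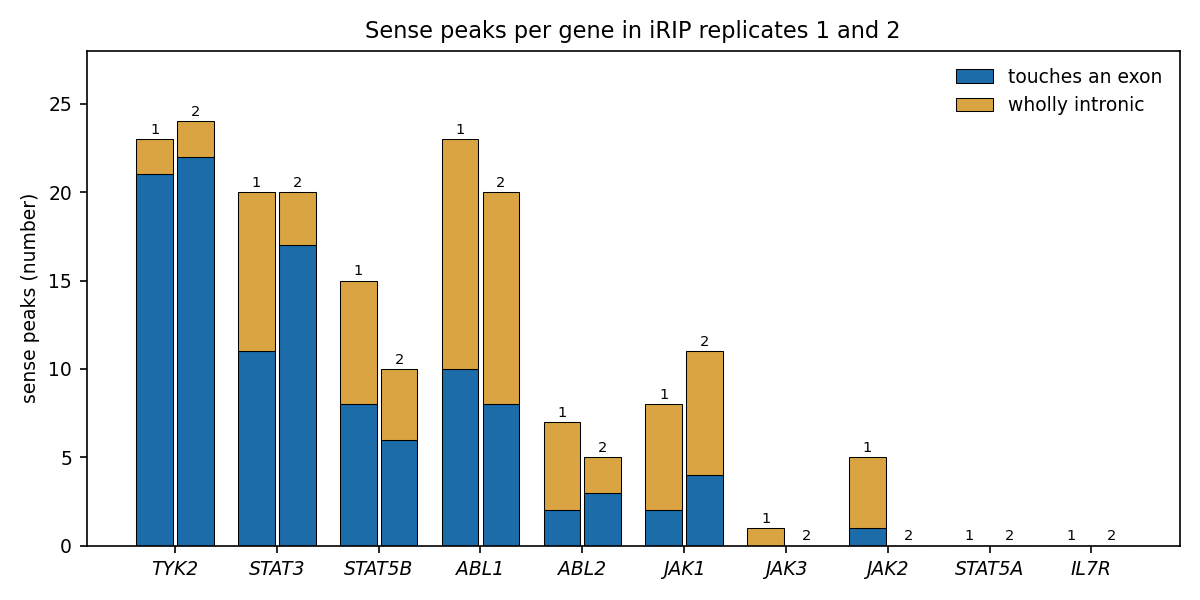
Number of sense peaks of each gene in replicate 1 and replicate 2, with peaks that touch an exon in blue and peaks wholly in introns in yellow. The genes are ordered by their mean peaks per 10 kb, which are not drawn. TYK2 had 23 and 24 peaks and 7.66 and 7.99 peaks per 10 kb, the latter above the density of all other members, and STAT5A and IL7R had 0.

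IL7R encodes the receptor chain that binds interleukin-7. It spans 22.7 kb of chromosome 5 on the plus strand, and no sense peak or antisense peak was listed for it. The inputs that would give its RNA level were not analysed here, so a lack of peaks is not a measure of binding.

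TYK2, a Janus kinase of the interferon and interleukin-12 family receptors, carried the most peaks for its length. The gene covers 30 kb of chromosome 19 on the minus strand and had 23 sense peaks in replicate 1 and 24 in replicate 2 (mean 7.82 peaks per 10 kb ± 0.235, SD, n = 2). Among 1852 genes of similar length, 98.8% had fewer peaks in replicate 1 and 98.1% in replicate 2, and the median was 1 peak in both. Genes of similar length are here those of the same length decile of all genes, which can span a wide range of lengths. Peaks mainly in CDS numbered 13 and 17, and 2 in each replicate lay mainly in the 5′ UTR. Only 2 peaks in each replicate lay wholly in introns.

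The heights of TYK2 ran from 4 to 13 tags in replicate 1 (median 5) and from 5 to 17 in replicate 2 (median 7). In each list 16 of its peaks overlapped one of the other list by at least 1 bp on the same strand, a share of 69.6% in replicate 1 and 66.7% in replicate 2. The highest peak of replicate 1 lay 172 nt downstream of the RefSeq start, at 10380350 to 10380400, with 13 tags there and 9 tags in the second library, across 5′ UTR and intron. The highest peak of replicate 2, a CDS peak at 10357750 to 10357800 with 17 tags, had no counterpart in replicate 1. In the CDS, the pair at 10364600 had 5 and 13 tags, and the pair at 10366400 had 6 and 12 tags. Throughout, the value of replicate 1 comes before that of replicate 2. A height of 10 tags or more was reached in both lists by TYK2 alone, 1 of 10 genes beside 4.06% of all genes. The sites differed between the lists, and no overlapping pair reached 10 tags in both.

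JAK1, which serves the receptors of interleukin-7, the interleukin-6 family and the interferons, had 8 peaks in replicate 1 and 11 in replicate 2 over 235 kb of chromosome 1. Most lay in introns, 6 and 7 of them wholly, and none was overlapped by the other replicate. Its heights reached 5 and 9 tags, the latter in CDS at 64844750 to 64844800. Of the genes of similar length, 53.6% and 75.3% had fewer peaks than JAK1, so its counts lay well inside their range.

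JAK2, the kinase of the erythropoietin and growth hormone receptors, had 5 peaks in replicate 1 and 0 in replicate 2. They had 4 to 6 tags, and 1 of them, at 5055750 to 5055800 on chromosome 9 with 4 tags, lay mainly in CDS. JAK3, which pairs with the common cytokine receptor gamma chain in lymphocytes, had 1 intronic peak of 5 tags in replicate 1, at 17835550 to 17835600 on chromosome 19, and 0 in replicate 2. The JAK3 gene, at 23.2 kb, is close to TYK2 in length and lies on the same chromosome, and it had 0.431 and 0 peaks per 10 kb where TYK2 had 7.66 and 7.99.

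**Figure D2:**
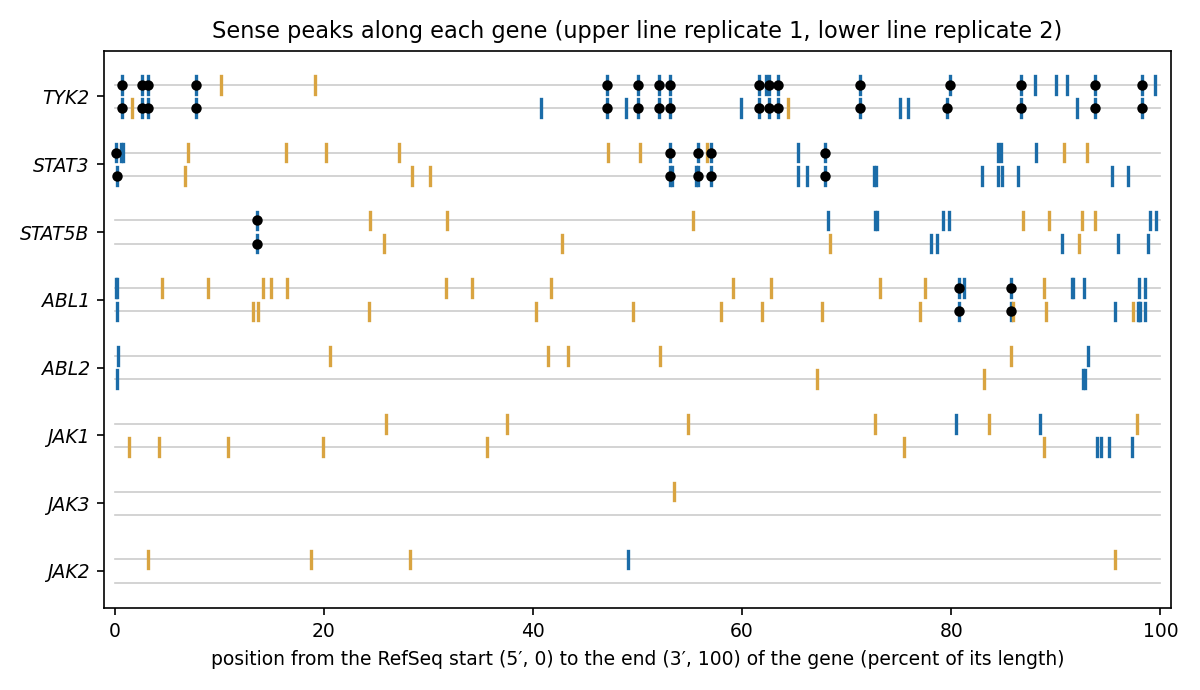
Position of each sense peak along its gene, as percent of the gene from its RefSeq start. Each peak is a vertical tick, on the upper line of its gene for replicate 1 and on the lower line for replicate 2. Blue peaks touch an exon, yellow peaks lie wholly in introns and a black dot marks a peak overlapped by the other replicate; all 24 overlapped peaks of each replicate are blue, and 16 of them are on TYK2.

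STAT5B, STAT5A and STAT3 are neighbours on chromosome 17. STAT3, the transcription factor of interleukin-6 type signals, had 20 sense peaks in each replicate over 75.1 kb (2.66 peaks per 10 kb in both), the next highest density after TYK2. Genes of similar length had fewer peaks in 97.5% and 96.3% of cases. Peaks that touched an exon numbered 11 in replicate 1 and 17 in replicate 2, and peaks wholly in introns 9 and 3. Its heights reached 8 and 24 tags.

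The 24-tag peak of STAT3, the highest of all 10 genes, lay 142 nt downstream of the RefSeq start at 42388250 to 42388300 and overlapped a longer peak of replicate 1 with 6.5 tags. In total 5 peaks of STAT3 in each replicate were overlapped, 25% of either list. The CDS pair at 42345550 had 5 and 12 tags. The pair at 42346550, also in CDS, had 8 and 9 tags, and the pair at 42348500, which spans 5′ UTR, CDS and intron, had 7 and 6 tags. The last pair, at 42337400 across CDS and intron, had 5 and 7 tags. The replicates were thus close in height at the last 3 sites and apart at the other two.

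STAT5B, which acts downstream of interleukin-7 and interleukin-2, had 15 peaks in replicate 1 and 10 in replicate 2 over 89.2 kb. In replicate 1, 13 of 15 peaks were at the list minimum of 4 tags. The highest peak of replicate 1 had 6 tags and lay in an intron at 42208650. In replicate 2 the highest peaks were in CDS, with 15 tags at 42202750 and 13 tags at 42207550, and neither was overlapped in replicate 1. A single site, 42276200 to 42276250 with 4 and 5 tags, the minimum of each list, was found in both replicates. A share of 0.94 of the site was intron and 0.06 was 5′ UTR. The site lay 141 nt downstream of another start site of the gene in the RefSeq promoter table.

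STAT5A, the close relative of STAT5B that shares most of its protein sequence, had 0 sense peaks in both replicates. Since uniquely mapped reads alone were kept, counts for this pair are uncertain wherever a read matches both genes. The part of this in the counts was not tested.

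ABL1 had 23 peaks in replicate 1 and 20 in replicate 2 over 175 kb of chromosome 9, a density of 1.32 and 1.15 peaks per 10 kb. CDS held 8 and 7 of them, and 13 and 12 lay wholly in introns. At the list minimum were 17 of the peaks of replicate 1 and 16 of those of replicate 2. Its highest peaks, 8 tags at 130874850 in replicate 1 and 10 tags at 130885100 in replicate 2, were not overlapped, although the latter adjoined a peak of 6 tags in replicate 1. CDS pairs were found at 130854050, with 5 tags in both replicates, and at 130862750, with 5 and 9 tags.

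ABL2 had fewer peaks, 7 in replicate 1 and 5 in replicate 2 over 130 kb of chromosome 1, of 4 or 5 tags each. None was overlapped, and 5 and 2 of them lay wholly in introns. Near the RefSeq start each replicate had a peak of 5 tags, 427 nt downstream in replicate 1 and 227 nt in replicate 2.

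In the order of peaks per 10 kb, TYK2 and STAT3 stood above all other members in both replicates. STAT5B (1.12 to 1.68) and ABL1 (1.15 to 1.32) overlapped. ABL2 (0.384 to 0.537), JAK1 (0.341 to 0.469), JAK3 (0 to 0.431) and JAK2 (0 to 0.344) also overlapped in a chain and cannot be ordered with 2 replicates.

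STAT3, TYK2, ABL1 and ABL2 had a peak within 500 nt downstream of the RefSeq start in both replicates, 4 of 10 members against 6.77% of all genes. This distance was chosen after the positions were seen. The share over all genes was not matched by number of peaks, and the median was 7.5 peaks for the members against 1 over all genes. STAT3 and TYK2 each had a peak in this stretch that the other replicate overlapped. Those of ABL1 and ABL2, of 4 or 5 tags, were not overlapped. The nearest peaks of the other genes were 12120 nt away in STAT5B in both replicates, 60746 and 3096 nt in JAK1, 4560 nt in JAK2 and 12382 nt in JAK3, the last 2 in replicate 1.

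**Figure D3:**
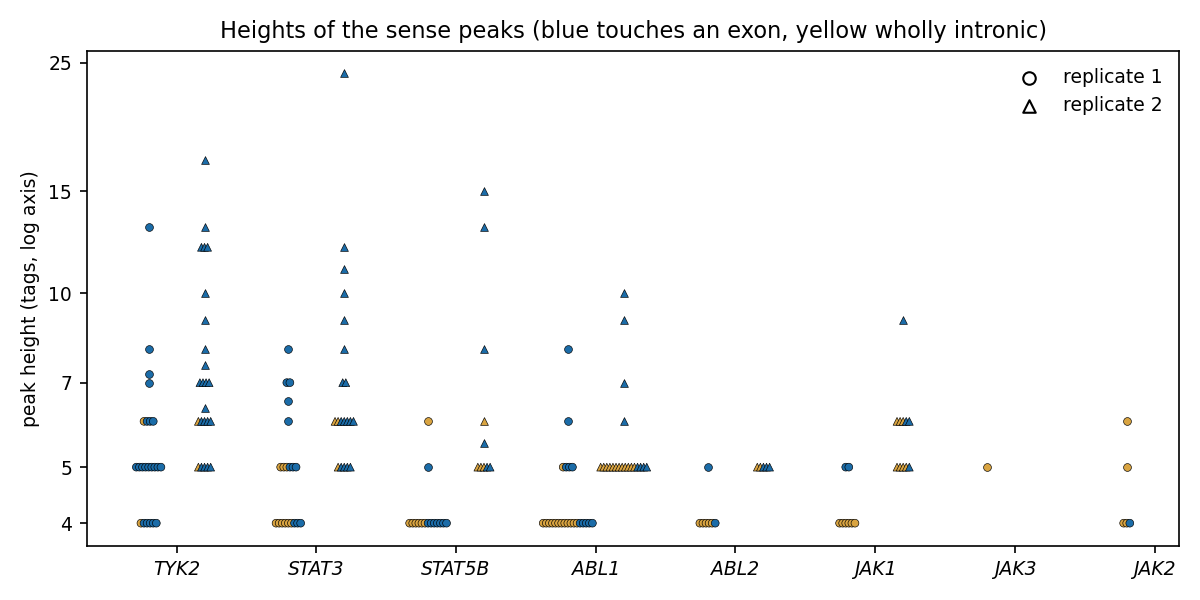
Height in tags of each sense peak, by gene and replicate, with exon-touching peaks in blue and wholly intronic peaks in yellow. The wholly intronic peaks do not exceed 6 tags in either replicate, while exon-touching peaks reach 13 and 24 tags.

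Peaks that touched an exon and peaks wholly in introns differed in height and in overlap. Exon-touching peaks numbered 55 of 102 in replicate 1 (53.9%) and 60 of 90 in replicate 2 (66.7%), against 37.2% and 46.1% of all sense peaks and 43.1% and 51.8% of the sense peaks of protein-coding genes. Without TYK2 the shares of the members were 43.0% (95% Wilson interval 32.7% to 54.0%) and 57.6% (45.6% to 68.8%), and both intervals held the protein-coding share. All 6 genes with peaks in both replicates also had an exon-touching peak in both, 6 of 10 beside 25.9% of all genes. The median height of the exon-touching peaks was 5 and 6 tags, and that of the wholly intronic peaks 4 and 5 tags, which is the minimum of each list. The same medians were found over all sense peaks.

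Of the member peaks, 24 of 102 in replicate 1 had a counterpart that overlapped them in replicate 2, or 23.5% with a 95% Wilson interval of 16.4% to 32.6%. The reverse count was 24 of 90, or 26.7% (18.6% to 36.6%). Over all sense peaks the shares were 16.6% and 15.8%, and over those of protein-coding genes 19.7% and 18.0%. Every overlapped member peak touched an exon, 24 of 55 (43.6%) in replicate 1 and 24 of 60 (40.0%) in replicate 2, beside 39.8% and 30.6% of all exon-touching peaks. The STAT5B peak counted here touched one by a share of only 0.06. Of the wholly intronic peaks, 0 of 47 and 0 of 30 were overlapped, which allows shares of up to 6.38% and 10.0%. Over all wholly intronic peaks the shares were 2.91% and 3.22%, so a difference was not detectable with this number of peaks. The intervals cover counting error only, and peaks of 1 gene share their RNA.

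The overlap rested on TYK2, which gave 16 of the 24 pairs, with 5 from STAT3, 2 from ABL1 and 1 from STAT5B. These 4 of 10 genes with an overlapped peak stand beside 16.3% of all genes. Without TYK2 the overlapped share was 10.1% in replicate 1 (8 of 79 peaks, Wilson interval 5.22% to 18.7%). In replicate 2 it was 12.1% (8 of 66 peaks, 6.27% to 22.1%). Both values were lower than the shares over all sense peaks (16.6% and 15.8%) and over those of protein-coding genes (19.7% and 18.0%). Of these backgrounds only the 19.7% of replicate 1 lay outside the interval, so a shortfall from the others was not detectable.

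**Figure D4:**
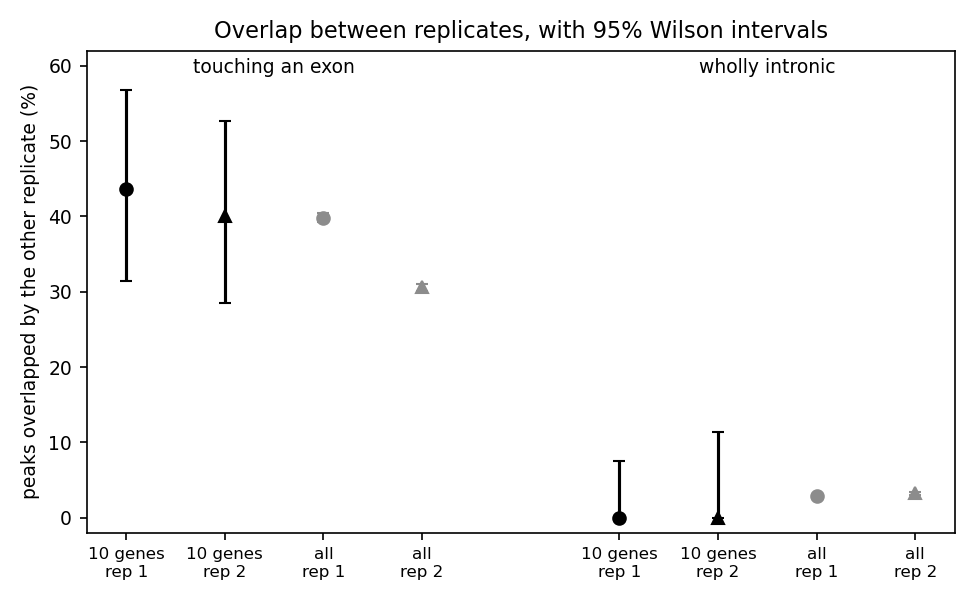
Percent of peaks overlapped by the other replicate, for the 10 genes and all sense peaks, with exon-touching and wholly intronic peaks apart and 95% Wilson intervals as error bars. Member peaks wholly in introns are at 0% in both replicates, and those touching an exon are at 43.6% and 40.0%. Without TYK2, which is not drawn apart, the exon-touching share is 23.5% and 21.1%.

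In the 24 pairs the height was greater in replicate 2 in 17, greater in replicate 1 in 5 and equal in 2. The median ratio of replicate 2 over replicate 1 was 1.33 and the ratios ran from 0.692 to 3.69. The highest ratio was that of STAT3, whose peak of 6.5 tags in replicate 1 was longer than its peak in replicate 2. These 2 heights may not be alike in measure. Because heights were not adjusted for depth, the ratios describe the libraries and not the genes. In 22 pairs the interval was the same in both lists. Positions lie on bins of 50 nt, so 2 overlapping peaks of 1 bin each must share their interval. The count is thus no measure of how closely the positions agree.

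By main region, CDS held 31.4% of the member peaks of replicate 1, with a 95% Wilson interval of 23.2% to 40.9%, and 46.7% of those of replicate 2 (36.7% to 56.9%). Over all sense peaks it held 19.9% and 25.6%, and over those of protein-coding genes 24.5% and 30.3%. Without TYK2 it held 24.1% (16% to 34.5%) and 37.9% (27.1% to 49.9%) of the member peaks, and both intervals held the protein-coding share. Introns held 54.9% and 44.4% against 69.2% and 62.4% of all sense peaks and 64.6% and 57.8% of those of protein-coding genes. Without TYK2 introns held 63.3% (52.3% to 73.1%) and 53.0% (41.2% to 64.6%), and both intervals held the protein-coding share. The 5′ UTR held 5.88% and 5.56%, against 3.38% and 3.90% for protein-coding genes. The 3′ UTR held 2.94% and 2.22%, against 4.36% and 4.61%. The Wilson intervals of these UTR shares held the protein-coding values. Peaks across the edge of CDS and intron made up 25.5% and 36.7%, or 19.0% and 28.8% without TYK2, against 19.0% and 24.9% of the sense peaks of protein-coding genes. The CDS share of the members differed by 15.3 percentage points between the replicates (two-sided Fisher's exact test, p = 0.0375), and the lists begin at different heights. With a minimum of 5 tags in both lists the difference was 6.19 percentage points (p = 0.575, same exact test), and without TYK2 it was 13.8 percentage points (p = 0.102, same exact test). The test compares 2 libraries and not conditions, and it counts peaks of the same gene as independent.

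The other genes of the pathway were read from lists set by their role in it. Over all genes, 47.6% had a peak in both replicates and 16.3% an overlapped peak. Of 16 settled cytokine receptor genes, 7 had a peak in both replicates and 1 an overlapped peak, close to or under the shares over all genes. That receptor was IL2RG, the common gamma chain that partners IL7R, with a CDS peak of 15 and 23 tags. IL2RA, IL9R, IL10RA and CRLF2 had no peak in either list, and IL6R, IL10RB, IFNAR1, IL21R and LIFR had peaks in 1 replicate only. Among the other STAT genes, STAT6, the factor of interleukin-4 signals, had 11 and 10 peaks and an overlapped peak of 5 and 6 tags. STAT4 had peaks in 1 replicate only.

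Of 20 inhibitors of the pathway, 15 had peaks in both replicates (47.6% over all genes) and 8 had an overlapped peak (16.3%). The highest were on PTPRC, the CD45 phosphatase (9 and 13 tags), and on SOCS1, a feedback inhibitor that binds Janus kinases (8 and 7 tags). The phosphatase genes PTPN6 (6 and 8 tags) and PTPN11 (6 and 9 tags) and SOCS7 (6 and 6 tags) tied for the next place by their lower height. SOCS3 and CISH, both induced by STAT proteins, had no peak in either list, and SOCS2, SOCS5 and PIAS3 had peaks in 1 replicate only.

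Of 10 STAT target genes, 6 had peaks in both replicates (47.6% over all genes) and 4 had an overlapped peak (16.3%). The highest overlapped peaks were on MYC, the growth-promoting transcription factor (9.33 and 10.8 tags), CCND3, the D-type cyclin of T cells (5 and 7 tags), and MCL1, an inhibitor of cell death (4.33 and 12.3 tags). The kinase gene PIM2 had no peak in either list, and PIM1, CCND2 and BCL6 had peaks in 1 replicate only.

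Of 13 settled ABL partners and fusion partners, 12 had peaks in both replicates (47.6% over all genes) and 7 had an overlapped peak (16.3%). These lists were not matched to all genes by length. BCR, which forms the BCR-ABL1 fusion, had 48 peaks in replicate 1 and 55 in replicate 2, with an overlapped peak of 16 and 24 tags. ZMIZ1 followed with 10 tags in both replicates, and NUP214, a nuclear pore gene (10 and 8 tags), and the adaptor CRKL (8 and 16 tags) tied by their lower height. RIN1 had peaks in 1 replicate only. The median of the list was 9 peaks in replicate 1 and 11 in replicate 2, against 7.5 in both for the 10 members and 1 over all genes.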

How the data were processed

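IGF2BP2 iRIP-seq of Jurkat cells was read as 150 bp pairs. According to the methods and the submitters' processing notes, the authors aligned reads to GRCh38 with TopHat2, kept uniquely mapped reads, and called peaks in each library by ABLIRC with 500 simulations per gene at p under 0.05, leaving out peaks that overlapped input peaks. Peak heights were deposited as a signal in tags, and 98.6% and 97.2% of heights are whole numbers. Among the member peaks, those with other heights were all longer than 50 nt. How the height of such a longer peak was formed is not known. The authors' p-value was used only as a filter. The reads behind each library are unknown.

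Positions were read as half-open intervals in bins of 50 nt, and an overlap needed 1 bp on the same strand. Identifiers were matched to 20037 RefSeq protein-coding genes (GRCh38.p14) by position, with a margin of 1000 nt and at least 80% of the CDS and UTR peaks. Of these genes, 12788 took an identifier, 5739 had no peak and 1510 were left out as not settled, among them IFNAR2, ABI2 and LAT. A peak's main region is the class with the largest share. Wilson intervals (95%) and the limit for 0 (3 counts) cover counting error alone: PCR copies of a molecule are counted as separate reads where they were kept.

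The members, lists and tests were chosen with earlier results of these data known. The genes named were all members, the highest peak of each replicate and all overlapped peaks (for TYK2 a selection), and, per list, the 3 genes with the highest overlapped peak by lower height and those without a peak in both, and some list genes are not reported here. Alternatives were heights of at least 5 or 10 tags, p under 0.001, exonic peaks only, any peak in the RefSeq interval, weighting by length, overlap of at least 50%, strand ignored, replicate 2 against replicate 1, and each replicate left out. Touching peaks and leaving out TYK2 were added after seeing the data. Functions were tested on simulated data. Python 3.11.15, numpy 2.4.6, pandas 2.3.3 and scipy 1.17.1 were used.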

Additional observations from a re-analysis of the deposited data

Results flagged for a closer look

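Peaks on the strand opposite to a member, which were not used in the counts of sense peaks, numbered 19 in replicate 1 and 18 in replicate 2. They were set aside for a closer look because they are a signal outside the main measurement, and no input list was used to set a background. Their heights were 4 to 5 tags in replicate 1 and 5 to 6 tags in replicate 2. None was overlapped by the other replicate, which with 19 and 18 peaks allows shares of up to 15.8% and 16.7%, beside 0.654% and 0.821% of all antisense peaks. JAK1 had 4 and 6 of them, ABL2 4 and 5, and STAT3 and ABL1 4 and 1 each. STAT5A, without a sense peak, had 3 antisense peaks of 6 tags in replicate 2 and 0 in replicate 1.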

How the results depend on the processing

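Any peak in the RefSeq interval, weighting by length, an overlap of at least 50%, strand ignored, replicate 2 against replicate 1 and touching peaks left every value they were run on within its limits. On bins of 50 nt a peak of 1 bin is overlapped in full or not at all, so the 50% setting could not change its status. With at least 10 tags, 1 and 13 member peaks remained in replicates 1 and 2, 1 member had peaks in both, the CDS share was 0% and 76.9%, the difference 76.9 points (exact p = 0.286) and the overlapped share 0%. With at least 5 tags, replicate 1 had 42 peaks, the difference was 6.19 points (exact p = 0.575) and the overlapped share 45.2%. With p under 0.001 there were 15 and 28 peaks, CDS shares of 46.7% and 71.4%, a difference of 24.8 points (exact p = 0.185) and an overlapped share of 33.3%. With exonic peaks only, meaning a main region of CDS, UTR or noncoding exon, there were 46 and 50 peaks and CDS shares of 69.6% and 84%. This set leaves out exon-touching peaks that lie mainly in introns. Its difference was 14.4 points (exact p = 0.144) and its overlapped share 41.3%. Without TYK2, chosen after seeing the data, the difference was 13.8 points (exact p = 0.102) and the overlapped share 10.1%. These filters leave fewer peaks, and the cause of other shifts was not tested. The difference in CDS share thus passed 0.05 in the unfiltered lists and missed it under these 5 settings. Leaving out 1 replicate gave 6 to 8 members with a peak. No paired analysis was possible because the inputs were not analysed here and 1 group remains. With unknown depth and 2 libraries, a gene without a peak cannot be told from one below the listed heights. Nor can it be told from a gene whose peaks were left out for overlapping input peaks. Both limits also hold for a peak without a counterpart in the other list.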
